A study of Homo sapiens with 4 samples.

Results

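The sites described here are m6A peaks listed for shNC cells alone, in genes that do have peaks in shALKBH5 cells. The cells were RPMI-8226, an established human line of multiple myeloma, a cancer of plasma cells. For m6A-seq, RNA fragments carrying N6-methyladenosine (m6A) are pulled out of poly(A) RNA with an antibody, and reads of this pull-down are set against reads of the untouched RNA, the input. One condition, shALKBH5, carried a lentiviral short hairpin RNA against ALKBH5, and the other, shNC, carried the lentiviral hairpin the labels name NC, so both had been transduced. Each condition had 1 immunoprecipitated (IP) and 1 input library, 4 libraries in all, and the labels name no clones or repeat cultures. A site was taken when the blocks of an shNC peak shared no base, strand ignored, with any block of the shALKBH5 list, while its Ensembl gene did occur in that list. This gave 2130 sites in 1814 genes, of 22448 peaks in the shNC list and 47074 peaks in both lists together.

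The sites were chosen by the measured overlap of the 2 peak lists, so their number, fold and p are descriptions, and no test was made. Over the whole lists, a shared base in the other list was missing from 12.6% of shNC peaks (2829) and from 19.8% of shALKBH5 peaks (4883). In the 10614 genes with peaks in both lists, this held for 9.82% of 21700 shNC peaks, which are the sites, and for 14.2% of 22942 shALKBH5 peaks. The 3255 shALKBH5-only sites in genes with shNC peaks are the mirror of the shNC-only sites and are given beside them. Of the genes with peaks in both lists, 17.1% held an shNC-only site and 25.3% held an shALKBH5-only site. No condition had a second IP or a second input library, so a site's absence from the other list has no replicate check, and sequencing depth is unknown. Among 10 plasma cell markers, 7 had a peak in the shALKBH5 list and 7 in the shNC list, against 1 and 0 of 9 T and NK cell markers, 2 and 2 of 7 myeloid markers and 1 and 2 of 7 stromal markers. Of these markers, IRF4 and POU2AF1 of the plasma cell set held an shNC-only site, and none of the T and NK, myeloid or stromal sets did. ALKBH5 itself had 3 peaks in each list, all with a shared base, and peak lists cannot show whether its RNA was reduced.

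The methyl mark m6A is placed on nascent RNA by a nuclear complex built around METTL3 and METTL14, with WTAP, VIRMA, ZC3H13 and CBLL1 among its other subunits. ALKBH5 and FTO remove it, and YTH domain proteins bind it and influence splicing, translation and decay of the RNA. The mark is known for lying in long internal exons and around stop codons, within a short consensus centred on GAC. A peak is a stretch where IP reads exceed input, and it marks an enriched region and not a single modified base. At transcript starts the same antibodies also bind N6,2'-O-dimethyladenosine, a cap-adjacent nucleotide.

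Sequences are shown for sites at transcript starts, since RefSeq promoter windows were the sequences used here and sites inside genes lie outside them. The 6 sequences printed here have the strongest p among start sites of protein-coding genes whose 5' edge lay within 50 bases of a RefSeq start (GRCh38.p14) with a promoter sequence, and which cover some of the bases printed. They were picked with these values known. Each runs 5' to 3' on the gene's strand over 80 bases, 50 before the start and 30 from it on, and capitals mark the bases that the shNC-only site covers.
SAP30BP, chr17:75667288-75667367, plus strand: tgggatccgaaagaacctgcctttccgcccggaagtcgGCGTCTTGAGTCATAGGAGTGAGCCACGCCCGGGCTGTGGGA
PQBP1, chrX:48897880-48897959, plus strand: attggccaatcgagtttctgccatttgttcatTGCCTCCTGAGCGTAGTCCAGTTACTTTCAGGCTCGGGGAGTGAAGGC
UBE2A, chrX:119574513-119574592, plus strand: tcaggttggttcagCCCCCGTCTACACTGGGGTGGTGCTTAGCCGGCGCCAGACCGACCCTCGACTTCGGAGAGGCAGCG
GOLPH3L, chr1:150697125-150697204, minus strand: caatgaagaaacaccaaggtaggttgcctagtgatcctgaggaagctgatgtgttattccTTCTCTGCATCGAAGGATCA
COA5, chr2:98608483-98608562, minus strand: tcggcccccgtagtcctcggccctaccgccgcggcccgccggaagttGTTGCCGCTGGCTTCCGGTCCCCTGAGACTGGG
BAG3, chr10:119651330-119651409, plus strand: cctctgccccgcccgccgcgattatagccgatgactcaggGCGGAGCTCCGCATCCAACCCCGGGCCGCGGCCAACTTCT
In 5 of the 6 the site began before the annotated start, by 12 bases in SAP30BP, 18 in PQBP1, 36 in UBE2A, 3 in COA5 and 10 in BAG3. In GOLPH3L, which encodes a Golgi phosphatidylinositol-phosphate binding protein, it began 10 bases inside the gene. RefSeq gives the start base as A in SAP30BP and UBE2A, as C in PQBP1 and as G in GOLPH3L, COA5 and BAG3. Of the 6, the 50 bases from the start held the letters GGAC in BAG3 alone, a co-chaperone of HSP70. There the letters lie past the 30 bases printed.

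The sites were weak members of the shNC list. Fold is the authors' ratio of IP over input within a peak, p is their p-value for it, and both were used only to describe and rank peaks. The median log10 p was -4.26 among the sites, with a middle range of -5.77 to -3.34, against -4.42 among shALKBH5-only sites and -21.3 among shNC peaks with a partner in the other list. The median fold was 4.46 for the sites, with a middle range of 2.43 to 11.6, against 4.69 for shALKBH5-only sites and 6.69 for shNC peaks with a partner. Sites were short, at a median of 150 bases, like the 150 of shALKBH5-only sites and unlike the 300 of shNC peaks with a partner. When all shNC peaks were ranked by p and cut into 4 equal groups, the strongest group held 1 site (0.0178% of its peaks), the next 32 (0.57%), the next 472 (8.41%) and the weakest 1625 (29.0%). A log10 p below -10 was reached by 120 sites (5.63%), against 10.2% of shALKBH5-only sites and 68.0% of shNC peaks with a partner.

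Many sites carried a pair of values that recurred in the list. The same fold and log10 p as another peak of the same list was found for 1246 sites (58.5%), against 56.9% of shALKBH5-only sites and 22.4% of shNC peaks with a partner. A fold of 8.03 with a log10 p of -3.31, for example, was listed for a site in NSD2, a histone methyltransferase gene, and also for sites in MCC and STARD10. A fold of 15 or more was listed for 12.3% of sites, against 10.5% of shALKBH5-only sites and 19.1% of shNC peaks with a partner. The highest fold of any site, 35.7, had a log10 p of -9.8.

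**Figure D1:**
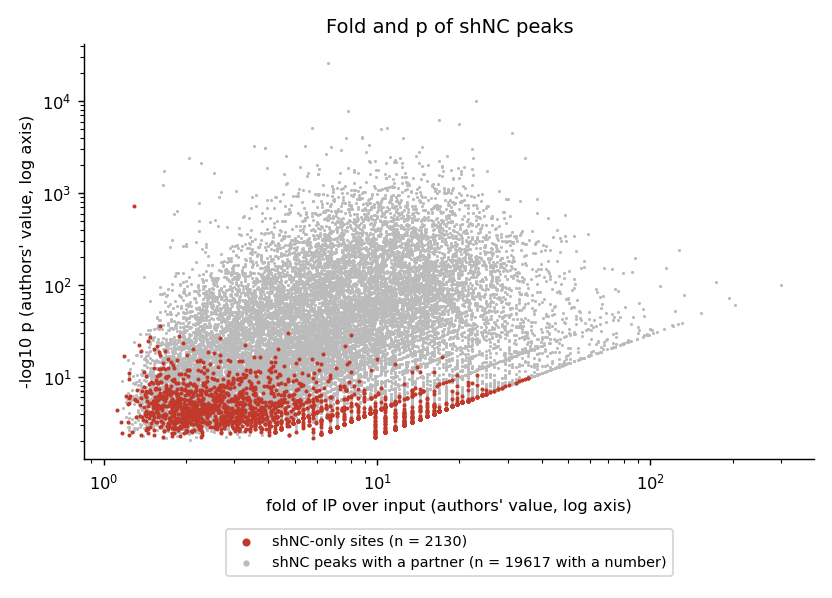
Fold of IP over input (x, log axis) against -log10 p (y, log axis) of shNC peaks, 1 point per peak, with the 2130 shNC-only sites in red and shNC peaks with a partner in grey; 2 partner peaks without a number are not drawn. The sites lie along the lower edge of the cloud, with a median log10 p of -4.26, and the lone red point far above them is the site in MT-ATP6.

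Within their genes, the sites stood about equally often before and after the nearest shared peak, that is, the nearest peak of the same gene in the same list that had a partner in the other list. Such a peak existed for 1944 sites, and 975 of these lay on its 5' side (50.2%, interval 47.9 to 52.4). All intervals on shares are exact 95% Clopper-Pearson intervals, which cover counting error only and treat peaks as independent. Of the 3072 shALKBH5-only sites with such a peak, 1937 lay on its 5' side (63.1%, interval 61.3 to 64.8). Measured along the genome, introns included, the median distance was 1073 bases for shNC-only sites (interval 956 to 1217) and 2068 bases for shALKBH5-only sites (interval 1767 to 2307). For scale, the median distance between a shared shNC peak and the nearest other shared peak of its gene was 627 bases. That value covers only genes with more than a single shared peak (14123 peaks). The distances of the sites also include genes with a single shared peak. The middle range of the sites ran between 297 and 7776 bases.

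The side varied with the distance to the shared peak. Under 100 bases away, 41.3% of 138 sites were on the 5' side, and between 100 and 500 bases 46.3% of 555. Between 500 and 1000 bases the share was 43.3% of 252, and between 1000 and 10000 bases it was 48.5% of 565. Past 10000 bases it was 64.1% of 434. In the same order of distance, shALKBH5-only sites had 54.5%, 49.7%, 51.9%, 61.9% and 81.0% on the 5' side, a higher share at every distance. Sites on the 5' side lay a median of 1627 bases off and those on the 3' side 836 bases off, against 4520 and 772 bases for shALKBH5-only sites. Among placed sites not at a gene start, 45.5% of 1570 shNC-only sites were on the 5' side, against 52.0% of 2044 shALKBH5-only sites. Seen against all shared peaks of the gene, 687 sites (35.3%) lay 5' of every one, 563 (29.0%) between them and 694 (35.7%) 3' of every one, against 52.5%, 21.2% and 26.3% of shALKBH5-only sites.

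**Figure D2:**
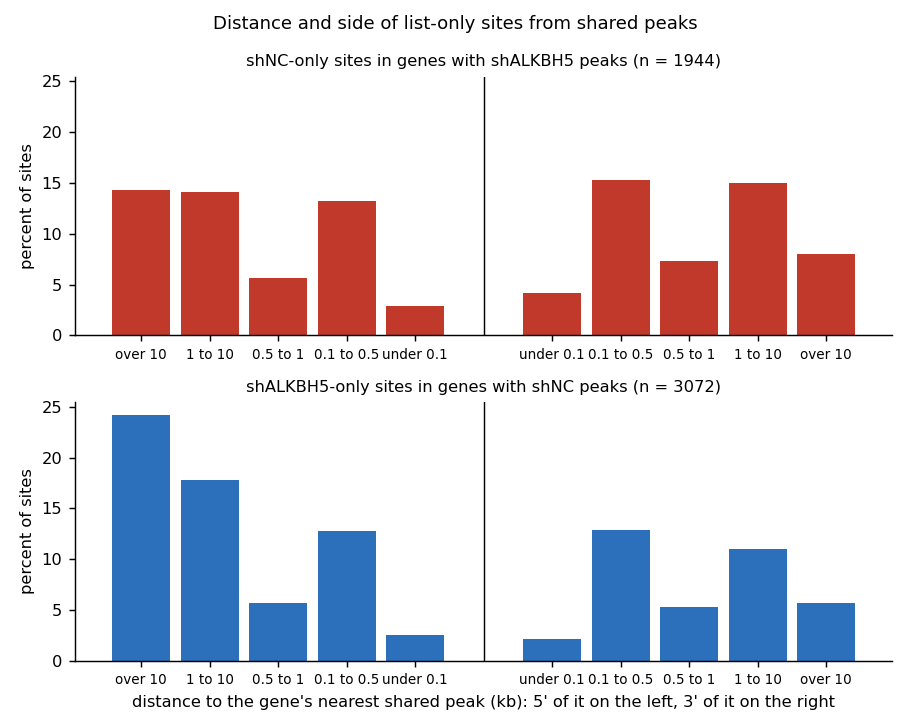
Percent of sites (y) by distance in kb to the nearest shared peak of the gene (x), with sites 5' of that peak on the left of the line and sites 3' of it on the right; shNC-only sites (n = 1944) above, shALKBH5-only sites (n = 3072) below. The upper bars hold 50.2% on the 5' side in total, but 41.3% of sites under 100 bases away and 64.1% of those past 10000 bases. The lower bars lean to the left, with 63.1%.

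By strength, the 5' share was 41.0% of 117 sites with a log10 p below -10 (interval 32 to 50.5), 48.1% of 576 with -10 to -5 (interval 43.9 to 52.3) and 52.0% of 1251 above -5 (interval 49.1 to 54.8). All 3 intervals include 50%. The shares of shALKBH5-only sites were 69.7%, 64.9% and 60.9% in the same order of strength.

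Along the gene, the sites lay mostly in the body. Start peaks were those whose 5' edge came before the RefSeq start or fell under 500 bases into the gene, and end peaks, among the rest, those whose 3' edge fell under 1000 bases from the RefSeq end. Of 1907 sites placed on a RefSeq gene, 200 were at the start (10.5%, interval 9.15 to 12), 1339 in the body (70.2%) and 368 at the end (19.3%, interval 17.5 to 21.1). Among 2942 placed shALKBH5-only sites, 26.3% were at the start, 60.2% in the body and 13.5% at the end. Among 17428 placed shNC peaks with a partner the shares were 11.2%, 65.5% and 23.3%. The start share of the sites was thus close to that of shared shNC peaks and under that of shALKBH5-only sites. Protein-coding genes held 93.6% of the placed sites, long noncoding RNAs 3.88% and pseudogenes 2.52%.

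**Figure D3:**
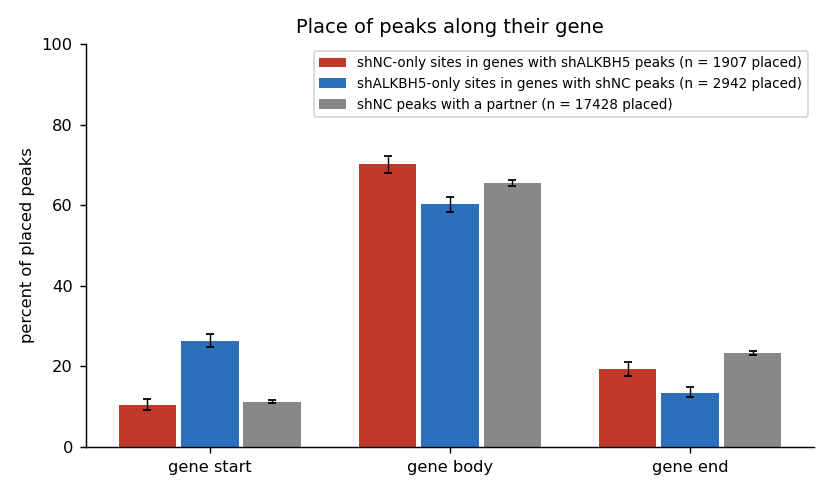
Percent of placed peaks (y) at the gene start, in the gene body and at the gene end (x) for shNC-only sites, shALKBH5-only sites and shNC peaks with a partner; bars show exact 95% intervals. At the gene start the shNC-only sites stand at 10.5%, the shALKBH5-only sites at 26.3% and the shared shNC peaks at 11.2%.

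The strongest start sites were in TIGD5, a transposase-derived gene, with a fold of 4.24 (log10 p -16.6), in DSCR4 (9.51 and -12) and in SIMC1 (3.57 and -11.2). The DSCR4 site began exactly on the RefSeq start. In BCL2, the anti-apoptotic founder of its family, a 180-base site (fold 4.01, log10 p -8.78) began 22 bases after the RefSeq start, 239 bases 5' of the shared peak. That shared peak had a fold of 34.1 (log10 p -160) in the shALKBH5 list, and 26.3 and -124 in the shNC list. The site in SAP30BP, whose sequence is printed above, lay 38249 bases 5' of its gene's nearest shared peak. The nearest shALKBH5 peak of any gene was 136 bases from it.

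RefSeq promoter windows (250 bases before to 50 after a start) matched 156 of the 200 start sites, and 88 began within 100 bases of such a start, in 86 distinct windows. The start base was A in 54.7% of these 86 (interval 43.5 to 65.4), against 50.6% for shALKBH5-only sites, 52.4% for shNC peaks with a partner and 44.4% of all 35116 windows. The letters GGAC stood on the sense strand within 50 bases of the start in 29.1% (25 of 86, interval 19.8 to 39.9), against 19.7%, 20.6% and 18.9% in the same order. Anywhere in the 300-base window on either strand, GGAC stood in 89.5%, against 91.7%, 92.8% and 87.4%. With 86 windows the intervals of the sites include the values of the shared peaks on these measures. For GGAC within 50 bases, the interval of shALKBH5-only sites, 16.2 to 23.6, overlapped that of the sites. The interval of all windows, 18.5 to 19.3, lay just under it. No test was made, and a match is a description, not a modified base.

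The site with the strongest p was the only one in the strongest group of the list. It lay in MT-ATP6, a mitochondrial gene for a subunit of ATP synthase, with a fold of 1.29 (log10 p -733), 87 bases 3' of a shared peak. That shared peak had 1.17 and -54.3 in the shALKBH5 list and 1.64 and -1240 in the shNC list. Folds this near to 1 lie just above the lowest folds of the lists, 1.11 for shALKBH5 and 1.12 for shNC. Reads of mitochondrial genes can also match near-identical nuclear copies, so this site is uncertain.

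Next came HSP90B1, the endoplasmic reticulum chaperone also called GRP94. Its site, chr12:103947327-103947649, covered 121 bases in 2 blocks at the gene end, 277 bases before the RefSeq end, with a fold of 1.60 (log10 p -36.2). The gene had 3 peaks in the shALKBH5 list and 4 in the shNC list, so this site was the whole difference in number. At the gene start, the shared peak had a fold of 11.8 (log10 p -71.9) in the shALKBH5 list, and 2.97 and -23.2 in the shNC list. The nearest shared peak was 5816 bases 3' of the site, past the RefSeq end.

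Several strong sites sat in genes with at least 1 shared peak of far stronger p. Within the shNC list, MLEC, RCC2 and HNRNPU also had a shared peak weaker than the site, while YWHAG, EIF4G1 and SFPQ had none. MLEC encodes malectin, an endoplasmic reticulum lectin, and its site (fold 1.88, log10 p -27.6) lay 238 bases 3' of a shared peak with a log10 p of -390 in the shALKBH5 list and -505 in the shNC list. At the start of MLEC another shared peak had -17.2 in the shALKBH5 list and -9.71 in the shNC list. YWHAG encodes a 14-3-3 protein, and its site (1.47, -27.4) lay between 2 shared shNC peaks, 269 bases 5' of the nearer one, which had -25.8 in the shALKBH5 list and -29.5 in the shNC list. RCC2, a mitotic regulator, had its site (1.45, -24.9) 406 bases 5' of a shared peak with -565 in the shNC list. That peak overlapped shALKBH5 peaks of -550 and -545. The start-side shared peak of RCC2 had -28.2 in the shALKBH5 list and -21.1 in the shNC list. Of the translation and RNA-binding genes, EIF4G1, the scaffold of the cap-binding complex, had a site at 1.34 and -22.1, HNRNPU one at 1.56 and -21.7 and SFPQ one at 1.52 and -20.4. The shared shNC peaks of HNRNPU had log10 p of -11.6, -15.8 and -1150, so 2 of the 3 were weaker than its site. All 6 of these sites had folds under 2, that is, a small excess of IP over input.

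SFTPA1, a lung surfactant protein gene, was of another kind. Its site was the longest of all, 538 bases, with a fold of 8.03 (log10 p -28.4), and lay 657 bases 5' of the gene's only shared peak. The gene had 1 shALKBH5 peak (fold 3.62, log10 p -3.14) and 3 shNC peaks. SFTPA1 has a near-identical neighbouring copy, so reads may have been split between them and the site is uncertain.

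Within the shNC list, most sites were weaker than every shared peak of their gene. This held for 1529 of 1944 (78.7%), while 328 fell within the range of the gene's shared peaks and 87 (4.48%) were stronger than all of them. Of these 87, 7 had a log10 p below -10, in MYLK, FMNL1, ENTPD5, MAP4K4, TXLNG, SLC9B2 and EIF2S1, which were named after their values were seen. MYLK, myosin light chain kinase, had 1 peak in the shALKBH5 list and 4 in the shNC list, of which 3 were sites. Its sites had folds of 7.64, 5.58 and 3.46 with log10 p of -21.8, -10.4 and -8.7, and all lay in the gene body 5' of the shared peak. That shared peak had a fold of 4.83 (log10 p -4.36) in the shALKBH5 list, and 10.3 and -19.1 in the shNC list. In FMNL1, a formin of blood cells, the site (2.65, -26.5) lay at the gene end, 5185 bases 3' of the nearest shared peak. The shared shALKBH5 peaks of FMNL1 had log10 p of -14.6, -27 and -12.7, so 1 of them was stronger than the site. ENTPD5, an endoplasmic reticulum nucleotidase, had a site with a fold of 17.2 (log10 p -16.4), 7290 bases 3' of a shared peak with 4.71 and -6.77 in the shALKBH5 list and 3.51 and -6.19 in the shNC list. EIF2S1 encodes the alpha subunit of initiation factor eIF2, and its site (1.69, -10.1) lay 22712 bases 3' of the shared peak, which had 13.6 and -13.3 in the shALKBH5 list and 2.64 and -4.82 in the shNC list.

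In 168 genes no peak of the gene in the shNC list was shared, and these genes held 186 sites. For 139 of these sites the gene had 1 peak in each list. For 4 of the 186, the gene's nearest shALKBH5 peak shared a base with an shNC peak listed under another gene. The median distance to the gene's nearest shALKBH5 peak was 1556 bases (interval 1140 to 3006), and 26 of the 186 lay under 200 bases from it. Of these sites, 68 lay 5' and 118 lay 3' of that shALKBH5 peak. PRPS2, a phosphoribosyl pyrophosphate synthetase, had its shALKBH5 peak at the gene start (fold 4.52, log10 p -3.69) and its shNC-only site at the gene end (3.29, -22.4), 31757 bases 3' of it. HLA-E, a nonclassical MHC class I gene, was arranged the same way, with a start peak of 1.60 and -3.38 in the shALKBH5 list and an end site of 2.01 and -17.4 in the shNC list. HLA-E has close paralogues, so its peaks are uncertain. In FRS3, an adaptor of FGF receptors, the shALKBH5 peak (10.2, -8.52) and the site (14.0, -12.8) were only 118 bases apart. GPS2, a subunit of the NCOR corepressor complex, had the stronger peak in the shALKBH5 list (6.61, -21.7), against a site of 2.33 and -8.7 in the shNC list 508 bases 3' of it.

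The 10 sites named for the highest folds had log10 p of -7.65 to -9.8 and no common place in their genes. CAPN1 (calpain 1), CIRBP (cold-inducible RNA-binding protein) and SDK2 (an adhesion molecule) each had a fold of 35.7, with log10 p of -9.78, -9.8 and -9.8. ARHGAP26 had 34.8 and lay 148 bases 3' of a shared peak. TMEM241 had 33.0, PPP1R3E, a regulatory subunit of protein phosphatase 1, had 32.1, and the innate receptor gene TLR1 had 30.3. VPS26B, a retromer subunit, had 29.4. INTU, a ciliogenesis gene, and ZC3H6 both had 28.5 with the same log10 p of -7.65. The CAPN1 site lay at the gene start, 29468 bases 5' of the nearest shared peak, the ZC3H6 site 149 bases 3' of one and the INTU site 62697 bases 3' of one.

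The farthest sites belonged to very long genes. CDK14, a cyclin-dependent kinase, had a site 481099 bases 5' of its shared peak, and the tumour-associated gene MCC had one at its start, 461013 bases 5' of its shared peak. HDAC4, a class IIa histone deacetylase, and RPTOR, the mTORC1 scaffold, also had sites near the start, 347822 and 363541 bases 5' of the nearest shared peak. In RPTOR an unshared shALKBH5 peak (3.62, -4.64) lay at the start too, 178 bases from the site. SPATA5, FNDC3B and PPP3CA, the calcineurin catalytic subunit gene, had sites on the other side, toward the gene end. PPP3CA had 2 of these, 321500 and 321021 bases 3' of a shared peak. All of these had a log10 p above -6.

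At the threshold itself, the gaps were small. Measured to a shALKBH5 peak of any gene, 63 sites (2.96%) were under 30 bases away, 201 (9.44%) under 100, 433 (20.3%) under 200 and 1192 (56.0%) under 1000. For shALKBH5-only sites, 16.2% had an shNC peak under 200 bases away and 47.0% under 1000. Just outside the threshold were the sites in CLN3, ADAP2, STARD10 and the long noncoding RNA gene TUG1. Their gaps to a shALKBH5 block of any gene were 0 (abutting), 2, 6 and 7 bases. The TUG1 site (1.56, -4.49) lay 89 bases 3' of the nearest shared peak of its own gene. That shared peak had 9.18 and -304 in the shALKBH5 list, and 6.68 and -203 in the shNC list. Just inside the threshold were shNC peaks in PLEC, KHNYN, MORN1 and MICAL3 that shared 1 base with an shALKBH5 block. In their own list, 209 sites (9.81%) shared a base with another shNC peak, against 17.9% of shNC peaks with a partner.

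Most genes held a single site. There were 1543 genes with 1 site, 235 with 2 and 36 with 3 or more. In 671 genes an shALKBH5-only site was present too, which is 37.0% of the 1814 genes and 25% of the 2682 genes with such a site. The shALKBH5 list had fewer peaks than the shNC list in 1175 of the 1814 genes, as many in 518 and more in 121. Each of these genes was chosen for an shNC peak missing from the other list, so the rule itself favours fewer shALKBH5 peaks. Over all 10614 genes with peaks in both lists, the median was 2 peaks per gene in each list. The share of genes holding a site went up with the number of shNC peaks in the gene, being 3.07% with 1 peak, 20.7% with 2, 30.5% with 3, 40.6% with 4 and 55.2% with 5 or more. Counted per peak, it was 3.07%, 10.6%, 11.8%, 12.9% and 12.9%, thus nearly level past a single peak. A lone shNC peak counts as a site only where the shALKBH5 list has a peak elsewhere in the gene. The rule itself can thus lower the share at 1 peak.

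Among the genes with the most sites were DNASE1, with 5, and MAP1B, LCOR and GVQW3, with 4 each. MAP1B, a microtubule-binding protein gene, had 6 peaks in the shALKBH5 list, all shared, and 9 in the shNC list. Its 4 sites interleaved with the shared peaks in one stretch of the gene, each on the 3' side of its nearest shared peak at 239, 569, 269 and 89 bases. The strongest of them had a fold of 6.35 (log10 p -17.8). LCOR, a nuclear receptor corepressor gene, likewise had 6 peaks in the shALKBH5 list and 9 in the shNC list, with 3 sites between shared peaks and 1 past the last of them. The DNASE1 sites all lay between shared peaks and had log10 p no stronger than -4.75.

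**Figure D4:**
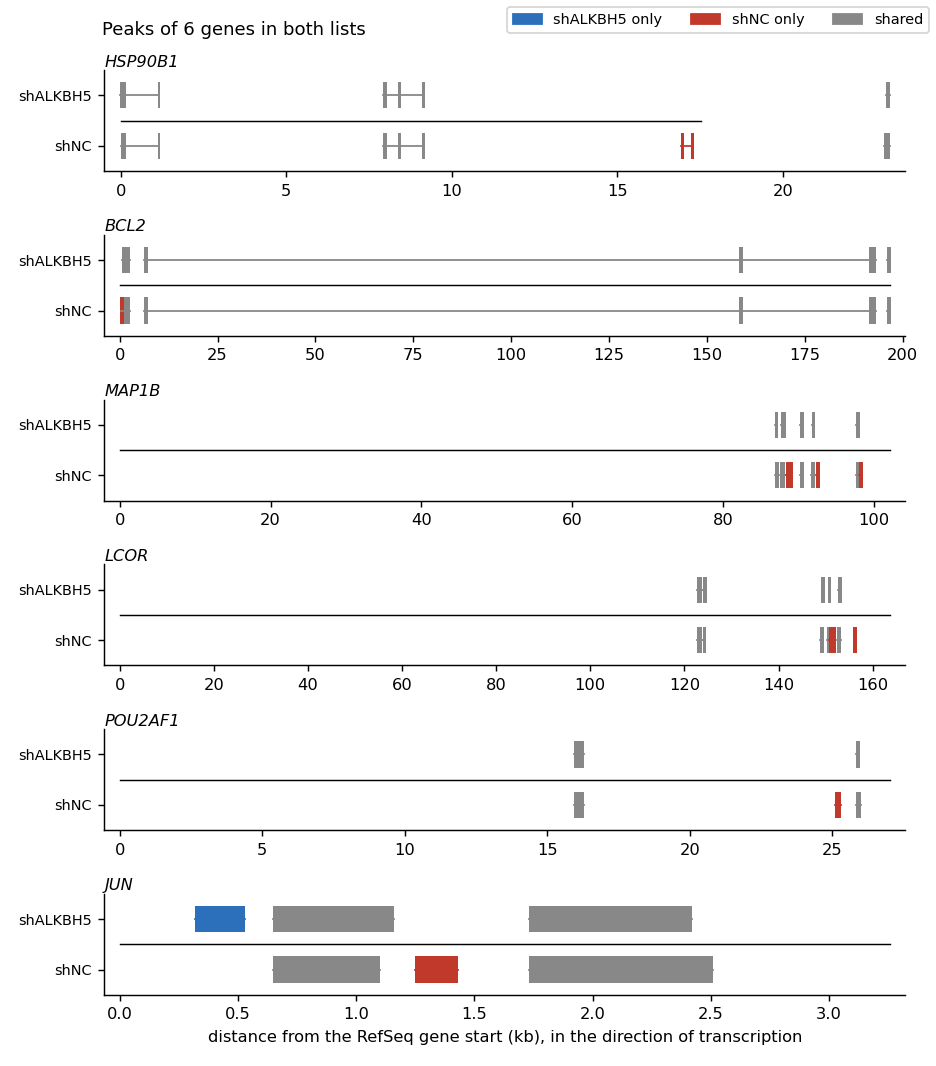
Peaks of 6 genes by distance from the RefSeq gene start in kb, in the direction of transcription (x, one scale per gene), shALKBH5 peaks above and shNC peaks below the line that spans the gene; boxes are blocks, thin lines join blocks of a spliced peak, and very short blocks are drawn wider than to scale to stay visible, so neighbouring boxes can merge. Red boxes are shNC-only sites: at the end of HSP90B1, at the start of BCL2, and 4 each between or beside shared peaks in MAP1B and LCOR.

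Among 12 pathway lists, the share of genes holding a site stood on both sides of the 17.1% found over all genes with peaks in both lists. Genes for splicing and RNA-binding proteins had the highest share, 8 of 22 (36.4%), namely HNRNPH1, HNRNPU, SON, SRRM1, SRRM2, SRSF10, SRSF11 and TRA2A. SRRM2, a large nuclear speckle protein gene, held 2 of their 9 sites, with folds of 1.52 and 1.40 and log10 p of -12.4 and -11.4. The folds of this list were low, with a median of 1.57. Apoptosis regulators followed with 6 of 22 (27.3%): BCL2, BCL2L1, BMF, CASP10, CFLAR and PMAIP1. BMF, a BH3-only protein gene, held 2 sites at its end, at 867 and 418 bases 3' of a shared peak of 59.9 and -72.5 in the shALKBH5 list and 22.2 and -49.3 in the shNC list. BCL2L1, which encodes BCL-XL, had a weak site (1.40, -4.73) 55716 bases 3' of its shared peak.

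Histone and chromatin regulators had 10 of 39 genes with a site (25.6%) and 17 sites, the most of any list, in genes with a median of 4 shNC peaks. KMT2A, a histone H3 lysine methyltransferase, KDM4B, a demethylase, and NSD2 held 3 sites each. Plasma cell and myeloma genes had 4 of 17 (23.5%). In POU2AF1, a B cell transcriptional coactivator, the site (1.59, -12.2) lay 507 bases 5' of a shared peak of 2.93 and -13.2 in the shALKBH5 list and 5.72 and -29.2 in the shNC list. In IRF4, the transcription factor that myeloma cells depend on, all 4 shALKBH5 peaks were shared, and the site (1.56, -10.2) lay at the gene end, 1615 bases 3' of the last of them. PAX5, a B cell identity factor, had 1 peak in each list, 507 bases apart, of 13.6 and -3.29 in the shALKBH5 list and 16.9 and -4.26 in the shNC list.

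Ubiquitin ligases and deubiquitinases had 5 of 23 genes with a site (21.7%), and PI3K, AKT and mTOR genes had 5 of 24 (20.8%). FOXO3, a transcription factor that AKT inhibits, had its site (2.13, -8.11) 88 bases 3' of a shared peak of 25 and -325 in the shALKBH5 list and 21.4 and -288 in the shNC list. DNA damage genes had 4 of 23 (17.4%), with 2 sites each in MDC1 and BRCA1. In the list of m6A enzymes and readers, 4 of 22 genes held a site (18.2%), near the 17.1% over all genes with peaks in both lists. They were the writer subunit genes CBLL1, VIRMA, WTAP and ZC3H13, with 2, 5, 5 and 6 shNC peaks. The list had a median of 3 shNC peaks per gene, and no share over writers alone was computed. Their folds were 6.47, 1.76, 3.57 and 4.82 with log10 p of -4.66, -7.03, -2.91 and -4.28, so none was strong. WTAP, the regulatory subunit, kept 4 shared peaks in each list, and its site lay 569 bases 3' of one of 10.5 and -483 in the shALKBH5 list and 13 and -629 in the shNC list.

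The remaining 4 lists lay under 17.1%. MAP kinase genes had 4 of 35 (11.4%), which were BRAF, HRAS, JUN and MAP3K5. JUN, an AP-1 subunit, had 3 peaks in each list with 1 of each unshared. Its shALKBH5-only site (2.90, -8.66) lay at 320 bases from the gene start and its shNC-only site (3.43, -11.9) at 1250 bases, on either side of a shared peak. TNF receptor and NF-kB genes had 2 of 28 (7.14%), CYLD, a deubiquitinase, and RELA, the p65 subunit. Cell cycle genes had 1 of 15 (6.67%), CDKN1B, which encodes the inhibitor p27. Unfolded protein response and folding genes had 1 of 26 (3.85%), HSP90B1, with a median of 1.5 shNC peaks per gene.

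The mirror counts over the same lists did not follow this order. An shALKBH5-only site was held by 10 of 26 folding genes, 9 of 28 NF-kB genes, 11 of 35 MAP kinase genes and 2 of 15 cell cycle genes. It was held by 8 of 22 splicing genes, 4 of 22 apoptosis genes, 15 of 39 chromatin genes, 3 of 17 plasma cell genes and 5 of 23 ubiquitin genes. The PI3K list had 11 of 24, the DNA damage list 9 of 23 and the m6A list 7 of 22, beside 25.3% over all genes with peaks in both lists. Lists differed in peaks per gene, which moved with the share as given above, and its part in these shares was not tested.

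**Figure D5:**
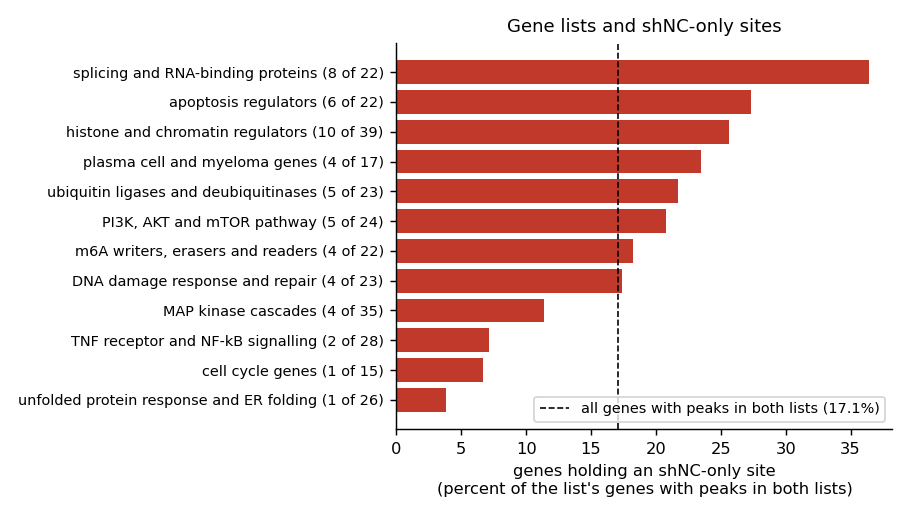
Percent of each pathway list's genes with peaks in both lists that held an shNC-only site (x), 1 bar per list with its counts; the dashed line is the 17.1% over all genes with peaks in both lists. The bars run between 3.85% for unfolded protein response genes and 36.4% for splicing and RNA-binding genes.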

How the data were processed

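Poly(A) RNA of shALKBH5 and shNC cells gave 1 IP and 1 input library each, per the labels. Per the submitters' processing notes, HOMER 4.9.1, BWA 0.7.12 and fastp 0.19.11 were among the tools and hg38 was the build. The peak-calling program was not given in the sources used here. Each deposited list covers 1 condition, with blocks, a strand, an Ensembl gene and symbol, and, per the file headers, a fold enrichment of IP over input (a ratio). The authors' score column holds a p-value, and the deposited log10 p and log10 FDR columns were handled as scores. A spreadsheet error stood in place of log10 p in 1 shALKBH5 and 2 shNC rows, none of them sites. No read counts were used, so depth is unknown.

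Peaks were shared when their blocks had at least 1 base in common, strand ignored. Distance is the genomic gap to the gene's nearest shared peak in the same list, and side follows the peak's strand. Gene start, end, type and promoter sequences came from RefSeq (GRCh38.p14), matched by symbol and chromosome, with 1 span per gene. No label states whether reads keep their strand, so overlapping genes cannot be told apart. Overlap, distance and side calls were tested on simulated peaks. Python 3.11.15, pandas 2.3.3, numpy 2.4.6, SciPy 1.17.1 and matplotlib 3.10.9 were used. No test was made, as the sites were chosen by the contrast itself.

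The members, the 15 gene lists and the rules were chosen with earlier results of these data known. Named genes were the 12 sites with the strongest p, the 10 with the highest fold, the 8 farthest from a shared peak, the 5 genes with the most sites, the 4 peaks on either side of the threshold, up to 4 genes per list with the strongest p, and ALKBH5, leaving out immunoglobulin genes, unnamed loci and pseudogenes. Genes at the gene start, without a shared peak or stronger than their shared peaks were named after their values were seen. A gene that the rule picked is not reported here. Alternatives were other overlap rules, other start and end windows, stricter folds, equal list lengths, matching by symbol and other shared peaks to measure from.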

Additional observations from a re-analysis of the deposited data

How the results depend on the processing

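Of 60 values recomputed under alternatives, 45 stayed within their counting interval or within 1.5 times the count, and 15 moved. When a peak within 200 bases counted as shared, the median distance was 1671 bases, and by construction 0% of sites had a shALKBH5 peak within 200 bases. Asking for an overlap of 50% of both peaks gave 4245 sites in 3160 genes, a 5' share of 52.8%, a median distance of 808 bases and 60% within 200 bases of a shALKBH5 peak. Measured from the gene's strongest shared peak, the median distance was 3286 bases. A start window of 1000 bases gave a start share of 13.5%, and an end window of 500 bases an end share of 10.9%. Sites with a log10 p below -10, an alternative chosen after seeing the data, numbered 120 in 115 genes, with 41.0% on the 5' side, 2.65% at the gene start and 26.5% at the gene end. The cause of these moves was not tested. No paired analysis was possible because each condition has 1 peak list from 1 IP and 1 input library, and for the same reason no replicate could be left out. Depth is unknown, and a site's absence from the shALKBH5 list does not show absence of enrichment there.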

Other observations

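Genes described as zinc finger proteins in the deposited lists made up 13.4% of the genes with an shNC-only site (243 of 1814, interval 11.9 to 15.1). Their share was 12.5% among genes with an shALKBH5-only site and 10.7% among all genes with peaks in both lists. Over the nuclear chromosomes, the share of shNC peaks that were sites ran between 7.69% on chromosome 14 and 11.6% on chromosome 4, and chromosome 1 held the most sites, 198. On the mitochondrial chromosome 2 of 15 peaks were sites (13.3%). These are values without a test. The other shNC-only peaks, 699 in genes without any shALKBH5 peak, differed from the sites in gene type, with 75.1% of their placed peaks in protein-coding genes, against 93.6% for the sites, and 16.5% in pseudogenes, against 2.52%.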
